A study of Mus musculus with 16 samples.

Results

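The 39 genes described here carry out DNA replication and the S phase of the cell cycle. They were taken by gene symbol from a list of names that was drawn up with earlier results of these data known. All 39 were among the 29060 genes of the expression table, and all 39 were among the 15222 genes expressed highly enough to be tested. The study sequenced RNA of primary mouse preadipocytes, dividing precursors of adipocytes, in 16 libraries that form 4 groups of 4. The cells were grown from the stromal-vascular fraction of inguinal white fat, a storage depot under the skin, or of interscapular brown fat, a heat-producing depot, and received Fgf8b, a secreted fibroblast growth factor, or a control treatment. The groups are called white control (libraries 1, 3, 5 and 7), white Fgf8b (2, 4, 6 and 8), brown control (9, 11, 13 and 15) and brown Fgf8b (10, 12, 14 and 16), and values of single libraries are given in that order. Mice of all 4 groups were of the C57BL/6N UCP1 reporter strain, and their age and the dose and duration of Fgf8b were not known here. The submitters' design names 3 cultures against 4 libraries in a group, and p-values therefore rest on the spread of libraries that may in part be technical replicates.

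Before S phase, the origin recognition complex, Cdc6 and Cdt1 load the ring of Mcm2 to Mcm7 onto DNA, which licenses each origin to fire once. At the start of S phase, Mcm10, Cdc45 and the GINS complex turn this ring into the moving helicase, and polymerases, the sliding clamp Pcna, its loader RFC and the enzymes that supply deoxynucleotides then copy the DNA while CAF-1 and Uhrf1 restore chromatin behind the fork. Many of these genes are known targets of E2F transcription factors, which are freed from the retinoblastoma protein when growth factors raise the D cyclins. Preadipocytes divide before they stop the cell cycle and differentiate.

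E2F factors are known to bind short GC-rich words near gene starts, and 8-base forms of this word were searched on both strands of the promoter windows of RefSeq genes on build GRCm38.p6. A window held 300 bases, 250 before and 50 after the start of a gene. Of the 39 members, 32 had a window, and Mcm4, Gins1, Gins2, Gins4, Prim2, Pole and Rfc2 had none in the table. The words were TTTCCCGC, TTTGGCGC, TTTCGCGC and TTTGCCGC. At least 1 of them stood in 13 of the 32 members (40.6%), against 4.56% of the 10590 tested genes with a window and 2.6% of all 27025 genes with one. Counted over windows, the share was 35.1% for members and 2.26% for all 32851 windows. The 13 genes were Orc1, Cdc6, Cdt1, Mcm3, Mcm5, Mcm6, Mcm7, Gins3, Pola1, Pold1, Rfc3, Lig1 and Uhrf1. A match is a description of these letters and was not tied to binding by any measurement here.

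The matches of 5 members that lay before the start and outside every exon annotated in GENCODE M21 are printed with their surroundings, because these genes range from nearly flat (Mcm6) to among the most raised (Cdc6). Each line reads 5′ to 3′ on the strand of the gene, and capitals mark the E2F word or overlapping words. The stretches are chr11:98907988-98908045 (Cdc6, plus strand), chr8:75109331-75109392 (Mcm5, plus strand), chr1:128359720-128359840 (Mcm6, minus strand), chrX:93632261-93632318 (Pola1, minus strand) and chr17:56304103-56304160 (Uhrf1, plus strand).
Cdc6: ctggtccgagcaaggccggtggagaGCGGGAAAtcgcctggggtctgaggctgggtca
Mcm5: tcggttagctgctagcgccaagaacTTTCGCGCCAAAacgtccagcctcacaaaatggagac
Mcm6: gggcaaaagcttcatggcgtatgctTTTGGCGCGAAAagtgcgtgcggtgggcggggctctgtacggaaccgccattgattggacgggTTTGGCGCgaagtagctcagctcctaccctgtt
Pola1: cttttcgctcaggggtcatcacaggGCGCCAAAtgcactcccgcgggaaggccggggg
Uhrf1: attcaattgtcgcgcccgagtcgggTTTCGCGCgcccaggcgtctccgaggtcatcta

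In Mcm5 a TTTCGCGC overlaps a TTTGGCGC of the other strand, and in Mcm6 a TTTGGCGC overlaps a TTTCGCGC of the other strand, with another TTTGGCGC downstream. Both carry such a pair of overlapping words. Mcm5 rose in both depots, and Mcm6 was called higher only in brown preadipocytes, by 0.09 (log2), as given with the licensing genes. The 13 members with a match had a median log2 change of 0.33 in white and 0.51 in brown preadipocytes. The 19 members with a window and no match had medians of 0.44 and 0.55. They ranged from -0.12 to 1.01 in white and from -0.17 to 1.36 in brown. The members with a match ranged from -0.06 to 0.77 and from 0.09 to 1.15. Whether the words bear on the response was not tested.

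Each library held 13.7 to 20.1 M reads as computed from the table, with 15.6 to 19.8 in white control, 16.1 to 20.1 in white Fgf8b, 13.7 to 16.1 in brown control and 14.6 to 16 in brown Fgf8b. Levels are RPKM (reads per kilobase of transcript per M reads) of 1 representative RefSeq transcript per gene, and the members' transcripts held from about 137 reads (Gins1) to about 6959 reads (Mcm6) in a library. The labels of single samples call the source adipocytes, whereas the title and design of the series call the cells preadipocytes, the name kept here. The cell type was checked with marker genes. Of 14 preadipocyte and fibroblast markers, 12 had a mean of at least 1 RPKM, with summed levels of 6470 to 6550 RPKM in white control, 4400 to 4570 in white Fgf8b, 4840 to 5470 in brown control and 3460 to 3580 in brown Fgf8b libraries. Of 11 mature adipocyte markers, 3 were tested, and the sum ran from 14.2 to 15.1 RPKM in white control, 13.8 to 15.7 in white Fgf8b, 21.8 to 24 in brown control and 17.9 to 20.7 in brown Fgf8b libraries, and Lep, Retn, Cfd and Pck1 were listed at 0 in all 16. Brown control 15 stood apart: the SD of its deviation from the mean of its group over all genes was 0.209 on the log2 scale, against 0.142 to 0.176 in the other libraries.

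Differences between groups were tested with limma on log2 of the summed RPKM of all transcripts of a gene plus 0.5, a scale that understates changes of low genes. "limma adjusted p" below is its p after Benjamini-Hochberg adjustment over all 15222 genes, and a gene was called at a value under 0.05. Depot runs with library number (1 to 8 white, 9 to 16 brown), so in comparisons between the depots these cannot be told apart.

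Fgf8b raised most of the replication genes in both depots. In white preadipocytes 31 of the 39 members were called higher and 2 lower, where 36.3% of all tested genes were called higher and 29.5% lower. Without white Fgf8b 2 or 4 or white control 5 or 7 no member was called lower. In brown preadipocytes 37 were called higher and 1 lower, against 36.7% and 34.7% of all genes, and 2 were lower without brown Fgf8b 10 or brown control 15. The median log2 change of the members was 0.359 in white and 0.509 in brown preadipocytes, beside 0.037 and 0.009 over all tested genes. A larger share of cells in S phase and more of each RNA per cell cannot be told apart in these bulk samples.

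The changes were modest in size. At least a 1.5-fold rise was measured for 8 members in white and 17 in brown preadipocytes. The smallest of these were the rises of Rfc4 in white and Mcm7 in brown. They exceeded the changes of 88.7% and 86.3% of all tested genes. At least a 2-fold rise was measured for 1 member in white (Tk1) and for 4 in brown (Mcm10, Rrm2, Cdc6 and Cdc45). Of all tested genes, 4.39% in white and 5.01% in brown were called with at least a 2-fold rise. In summed RPKM, the 4 Fgf8b libraries lay above all 4 control libraries for 31 members in white (35.0% of all genes did). They did so for 36 in brown preadipocytes (32.2%). Overlaps of single genes given below are those of the representative transcript and can differ. The mean over the 39 members of log2(summed RPKM + 0.5) was 7.139 ± 0.0299 (SD, n = 4) in white control, 7.506 ± 0.0183 in white Fgf8b, 7.046 ± 0.0254 in brown control and 7.592 ± 0.0132 in brown Fgf8b libraries. The 4 groups did not overlap in this mean: brown was below white in control libraries and above it under Fgf8b.

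**Figure D1:**
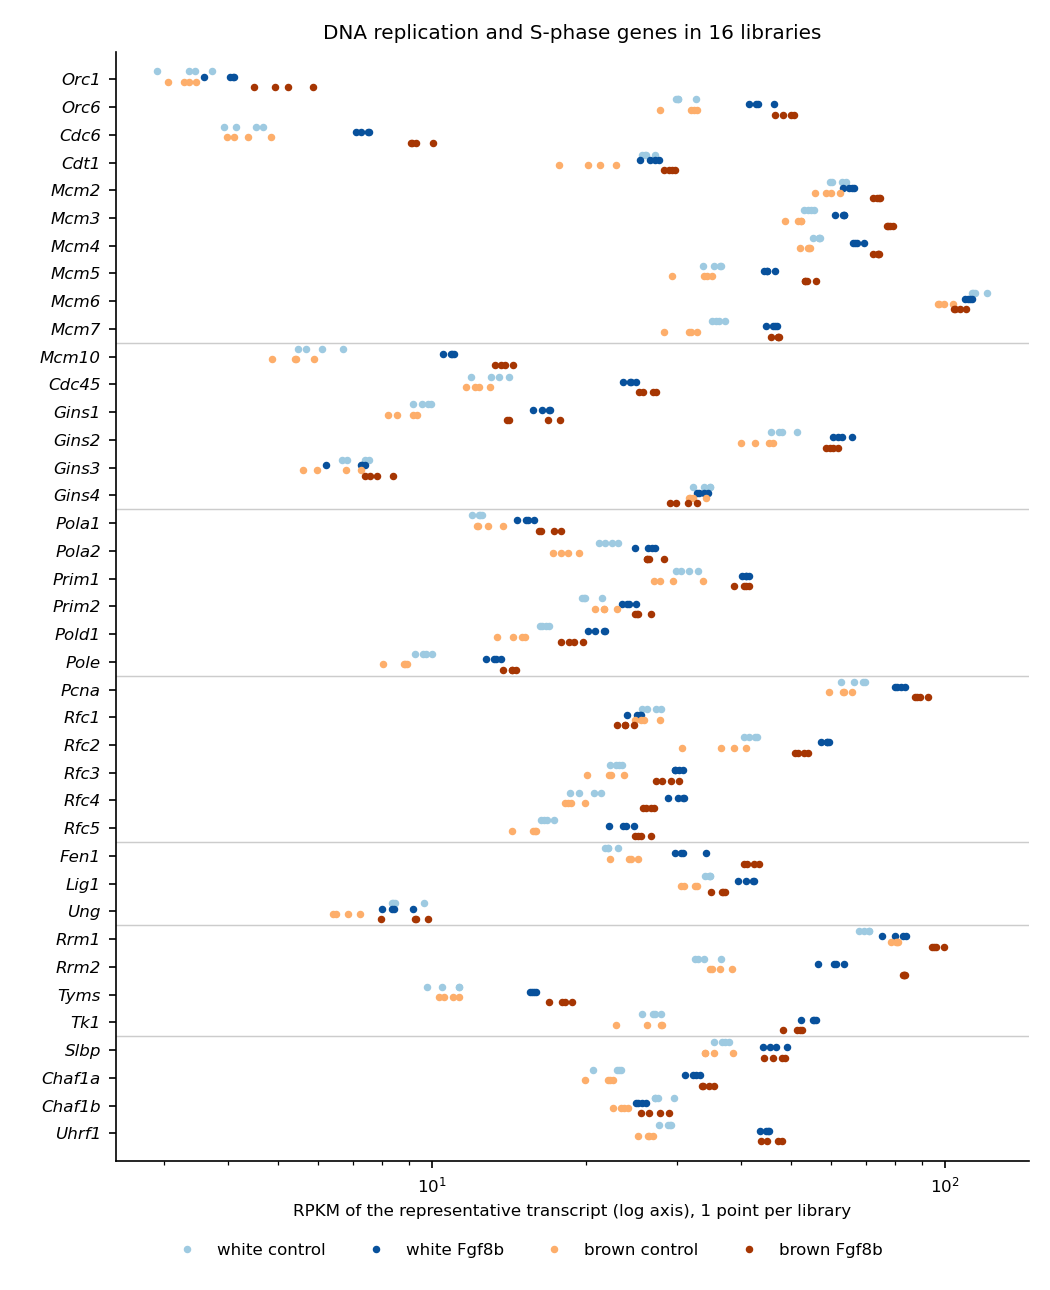
Level of each of the 39 genes (RPKM of the representative transcript, log axis) in the 16 libraries, 1 point per library, coloured by group, with lines between the roles. For most genes the Fgf8b libraries lie right of the controls, while Mcm6, Gins4 and Rfc1 stay near them.

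Licensing genes responded more in brown than in white preadipocytes. Of the 10, 7 rose in white and 10 in brown, with median log2 changes of 0.256 and 0.593. Cdc6, the loading factor that recruits the Mcm ring, had 4.15, 4.69, 3.94 and 4.53 RPKM in white control, 7.12, 7.53, 7.27 and 7.5 in white Fgf8b, 4.87, 4.11, 4.39 and 3.98 in brown control, and 9.32, 9.09, 10.1 and 9.15 in brown Fgf8b libraries. All Fgf8b libraries lay above all controls, and under Fgf8b all brown libraries lay above all white. Its log2 change was 0.77 ± 0.065 (SE) in white (limma adjusted p = 4.4e-09) and 1.15 ± 0.065 (SE) in brown preadipocytes (limma adjusted p = 9.88e-12). It was among the lowest members in level, and 8.78% of its 31-base words also occur in other genes.

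Cdt1, the partner of Cdc6 in loading that is destroyed once S phase begins, changed in brown preadipocytes and was not called in white. Its levels were 26.1, 27.3, 25.6 and 26 RPKM in white control, 27.7, 25.5, 26.6 and 27.2 in white Fgf8b, 22.8, 20.1, 21.3 and 17.6 in brown control, and 28.9, 29.3, 29.7 and 28.4 in brown Fgf8b libraries. White groups overlapped, whereas in brown every Fgf8b library exceeded every control. The log2 change was 0.03 ± 0.0606 (SE) in white (limma adjusted p = 0.704) and 0.51 ± 0.0606 (SE) in brown (limma adjusted p = 4.39e-07). Brown controls lay below all other libraries, and brown control 15 was the lowest of them.

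The 6 subunits of the Mcm ring, which form a complex with 1 copy of each, did not change alike. Mcm5 had 33.8, 36.6, 35.5 and 36.4 RPKM in white control, 44.3, 45, 45 and 46.6 in white Fgf8b, 34.3, 33.9, 35.1 and 29.4 in brown control, and 53.7, 56.1, 53.4 and 53.2 in brown Fgf8b libraries. These groups were fully separated by treatment in both depots, with log2 changes of 0.35 ± 0.0457 (SE) and 0.71 ± 0.0457 (SE) (limma adjusted p = 1.6e-06 and 7.05e-11). Mcm3 had 54, 55.5, 54.7 and 53 RPKM in white control, 60.9, 63.5, 63.4 and 63.6 in white Fgf8b, 52.5, 52.3, 51.6 and 48.8 in brown control, and 78.1, 79.1, 77.1 and 77.3 in brown Fgf8b libraries, so that brown Fgf8b libraries stood above all others. Its change was 0.21 ± 0.0317 (SE) in white and 0.6 ± 0.0317 (SE) in brown. Mcm7 and Mcm4 rose in both depots too, by 0.36 and 0.26 (log2) in white and 0.59 and 0.45 in brown. For Mcm7, 26.8% of its 31-base words recur elsewhere, among them in the pseudogene Gm5487, and its level is uncertain.

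Mcm2 had a log2 change of 0.07 ± 0.0387 (SE) in white, which was not called (limma adjusted p = 0.108), and rose by 0.32 in brown. Mcm6, the most abundant of the 6, had 114, 121, 113 and 113 RPKM in white control, 112, 109, 113 and 111 in white Fgf8b, 96.8, 99.4, 97.3 and 104 in brown control, and 109.8, 107, 104 and 104 in brown Fgf8b libraries. The white groups overlapped, and in brown the highest control and the lowest Fgf8b libraries both stood near 104 RPKM. Its log2 change was -0.06 ± 0.0324 (SE) in white (limma adjusted p = 0.139) and 0.09 ± 0.0324 (SE) in brown (limma adjusted p = 0.0152). The brown call ended without brown Fgf8b 10 (0.08, limma adjusted p = 0.0565) and under both other scalings (0.06 and 0.0034), which also turned the white value into a call of lower (-0.11 and -0.12). The ratio of the highest to the lowest subunit went from 3.24 to 2.46 in white and from 3.18 to 2.27 in brown preadipocytes. The summed level of the 6 went from 360.0 to 398 and from 328 to 433 RPKM.

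Among the origin recognition genes, Orc6 rose by 0.5 in white and 0.66 in brown (log2). Orc1, the subunit that binds with Cdc6 and the lowest member in level, had 3.46, 3.35, 3.72 and 2.91 RPKM in white control, 4.04, 3.6, 4.1 and 4.09 in white Fgf8b, 3.36, 3.47, 3.29 and 3.06 in brown control, and 4.93, 5.24, 4.5 and 5.87 in brown Fgf8b libraries. White controls and white Fgf8b libraries overlapped, and brown Fgf8b libraries were above all others. Its changes were 0.25 ± 0.0824 (SE) and 0.6 ± 0.0824 (SE) on the log2 scale. The white call ended when white control 7 was left out (0.18, limma adjusted p = 0.0565).

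Helicase activation held some of the largest changes. Mcm10, which helps open the loaded ring, had 5.47, 6.09, 6.72 and 5.69 RPKM in white control, 10.9, 10.5, 11 and 10.9 in white Fgf8b, 5.42, 5.44, 4.88 and 5.9 in brown control, and 14.4, 13.6, 13.3 and 13.9 in brown Fgf8b libraries. The groups were separated by treatment with a wide gap, and its log2 changes of 0.86 ± 0.0638 (SE) and 1.36 ± 0.0638 (SE) had limma adjusted p = 7.39e-10 and 6.25e-13. Cdc45, which binds the ring to make the active helicase, had 11.9, 13, 14.1 and 13.5 RPKM in white control, 24.9, 24.4, 23.6 and 24.3 in white Fgf8b, 13, 12.3, 12.1 and 11.6 in brown control, and 26.9, 25.3, 27.3 and 25.8 in brown Fgf8b libraries. It rose by 0.89 in white and 1.1 in brown, and no Fgf8b library was as low as any control.

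The GINS subunits, which form a complex with 1 copy of each, split. Gins1 rose by 0.76 and 0.88, and Gins2 by 0.37 and 0.43 (log2, white and brown). Gins3 had a log2 change of -0.02 ± 0.0797 (SE) in white that was not called and rose by 0.27 in brown, and this call ended with upper-quartile scaling (0.18, limma adjusted p = 0.0529). Gins4 was called in neither depot, at 0.01 ± 0.0448 (SE) and -0.09 ± 0.0448 (SE). In brown it was called lower in 4 alternatives: with median-of-ratios (-0.12) and upper-quartile scaling (-0.18, limma adjusted p = 0.00128), and without brown Fgf8b 10 (-0.12) or brown control 15 (-0.11). Its levels were 34.8, 32.3, 33.9 and 34.8 RPKM in white control, 33.2, 33.9, 34.5 and 32.8 in white Fgf8b, 34.2, 31.7, 32.3 and 31.9 in brown control, and 32.9, 31.6, 29.9 and 29.1 in brown Fgf8b libraries, so that both pairs of groups overlapped. The gap between the highest subunit, Gins2, and the lowest, Gins3, was 6.78-fold in white control and 8.91-fold in white Fgf8b libraries, and 6.8-fold and 7.72-fold in brown. On the opposite strand, exons of Gse1 cover 67.3% of Gins2, and Gse1 had changes of -0.13 and 0.02. The sources used here do not say whether counting used strand, so reads of Gse1 may count toward Gins2.

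All 6 polymerase and primase genes rose in both depots, with narrower changes, from 0.24 to 0.44 in white and 0.23 to 0.7 in brown preadipocytes. Pole, the catalytic subunit of the leading-strand polymerase, changed most, by 0.44 ± 0.0424 (SE) and 0.7 ± 0.0424 (SE) on the log2 scale (limma adjusted p = 3.1e-08 and 2.59e-11). Its levels were 9.74, 9.62, 9.26 and 10 RPKM in white control, 12.7, 13.3, 13.2 and 13.6 in white Fgf8b, 8.8, 8.86, 8.93 and 8.01 in brown control, and 13.7, 14.6, 14.3 and 14.3 in brown Fgf8b libraries, with no overlap by treatment. Pola2, the accessory subunit of the priming polymerase, rose by 0.24 and 0.55, whereas its catalytic partner Pola1 rose by 0.33 and 0.34. The primase subunits Prim1 and Prim2 rose by 0.37 and 0.26 in white and by 0.45 and 0.23 in brown. Pold1, of the lagging-strand polymerase, rose by 0.36 and 0.4.

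Of the clamp and its loader, 5 of 6 genes rose and 1 fell in each depot. Pcna, the clamp that tethers polymerases, had 62.6, 69.3, 66.5 and 69.7 RPKM in white control, 79.9, 82.2, 80.4 and 83.7 in white Fgf8b, 63.2, 65.9, 63.4 and 59.5 in brown control, and 88, 92.4, 87.4 and 89.4 in brown Fgf8b libraries. Its groups did not overlap by treatment, and it rose by 0.28 in white and 0.5 in brown (log2). A share of 23.3% of its 31-base words recurs elsewhere, among others in the pseudogene Pcna-ps2. Rfc2 to Rfc5, the small subunits of the loader, rose by 0.4 to 0.6 in white and 0.4 to 0.65 in brown. Rfc1, the large subunit, had 25.6, 27.3, 26.3 and 27.9 RPKM in white control, 25.1, 24, 25.5 and 25.5 in white Fgf8b, 24.9, 25.9, 25.6 and 27.8 in brown control, and 24.7, 23.8, 23 and 23.8 in brown Fgf8b libraries. In both depots the Fgf8b libraries lay just below the controls for this transcript, whereas the summed values that were tested overlapped in white. Its log2 change was -0.12 ± 0.0495 (SE) in white (limma adjusted p = 0.0412) and -0.17 ± 0.0495 (SE) in brown (limma adjusted p = 0.00494), and it was the only member called lower in both depots. The white call ended with white control 3, 5 or 7 or white Fgf8b 2 or 4 left out, with limma adjusted p up to 0.115.

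Fen1, the nuclease that trims Okazaki fragments, had 21.8, 22, 23 and 22.1 RPKM in white control, 29.7, 30.8, 30.5 and 34.2 in white Fgf8b, 24.2, 24.4, 25.1 and 22.2 in brown control, and 41.1, 40.6, 42.5 and 43.4 in brown Fgf8b libraries. It rose by 0.48 in white and 0.8 in brown, without overlap. Exons of Gm10143 on the opposite strand cover 78.8% of Fen1, and this gene had nearly the same changes (0.49 and 0.8), so that their reads cannot be told apart. Lig1, the ligase that seals the fragments, rose by 0.25 and 0.2. Ung, which removes uracil from new DNA, had 8.45, 8.41, 8.35 and 9.64 RPKM in white control, 8.37, 7.97, 8.42 and 9.19 in white Fgf8b, 6.41, 7.24, 6.85 and 6.5 in brown control, and 7.97, 9.82, 9.27 and 9.29 in brown Fgf8b libraries. Its change was -0.03 ± 0.0661 (SE) in white (limma adjusted p = 0.686) and 0.4 ± 0.0661 (SE) in brown (limma adjusted p = 2.29e-05). As for Cdt1, brown controls were the lowest group.

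The 4 genes of deoxynucleotide supply rose in both depots, with the highest median of the 7 roles, 0.695 in white and 0.84 in brown. Tk1, the thymidine salvage kinase of S phase, had 26.9, 27.3, 25.6 and 27.9 RPKM in white control, 55.2, 52.4, 55.9 and 55.6 in white Fgf8b, 26.2, 27.9, 28.1 and 22.9 in brown control, and 52.6, 51.4, 48.4 and 52 in brown Fgf8b libraries. The groups of each depot stood far apart by treatment. Its log2 changes were 1.01 ± 0.0537 (SE) in white, the largest there among the members, and 0.96 ± 0.0537 (SE) in brown (limma adjusted p = 5.68e-12 and 9.08e-12). Rrm2, the S-phase subunit of ribonucleotide reductase, had 32.5, 33, 33.9 and 36.7 RPKM in white control, 56.5, 60.7, 61.1 and 63.4 in white Fgf8b, 38.4, 36.4, 35.1 and 34.8 in brown control, and 83.2, 83.2, 82.8 and 83.5 in brown Fgf8b libraries. The 4 brown Fgf8b libraries lay close together and above all others. Its changes were 0.81 ± 0.0427 (SE) and 1.2 ± 0.0427 (SE) (limma adjusted p = 5.18e-12 and 1e-14), although 12% of its 31-base words recur in other genes. Rrm1, the long-lived large subunit, rose by 0.2 and 0.27, so that the Rrm1 to Rrm2 ratio of mean RPKM went from 2.05 to 1.33 in white and from 2.21 to 1.16 in brown preadipocytes. Tyms, which makes thymidylate, rose by 0.58 and 0.72.

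Behind the fork, Uhrf1, which reads hemimethylated DNA and helps maintain methylation, rose by 0.62 ± 0.0305 (SE) and 0.8 ± 0.0305 (SE) (limma adjusted p = 1.5e-12 and 2.59e-14), with 24.2% of its 31-base words shared with pseudogenes such as Gm5648 and other genes. Slbp, which binds histone messages, rose by 0.32 and 0.39. The CAF-1 subunits, which place histones on new DNA, came apart in white preadipocytes. Chaf1a rose by 0.48 and 0.6, and Ubxn6, whose exons on the opposite strand cover 52.5% of it, had changes of 0.0 and -0.01. Reads of Ubxn6 may likewise count toward Chaf1a. Chaf1b had 27.2, 27.2, 29.6 and 27.6 RPKM in white control, 25.6, 25, 26.1 and 25.2 in white Fgf8b, 23.7, 24.1, 23.4 and 22.5 in brown control, and 28.9, 27.8, 25.6 and 26.4 in brown Fgf8b libraries. All white Fgf8b libraries lay below all white controls, and all brown Fgf8b libraries lay above all brown controls.

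Chaf1b was the only member called in opposite directions, at -0.12 ± 0.0461 (SE) in white (limma adjusted p = 0.0292) and 0.24 ± 0.0461 (SE) in brown (limma adjusted p = 0.000122). The white call ended, with limma adjusted p from 0.0559 to 0.0926, when white control 5 or 7 or white Fgf8b 2, 4 or 8 was left out. Mean levels put Chaf1b above Chaf1a in both control groups (27.9 against 22.5 RPKM in white, 23.4 against 21.7 in brown) and below it in both Fgf8b groups (25.5 against 32.3, and 27.2 against 34.4).

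**Figure D2:**
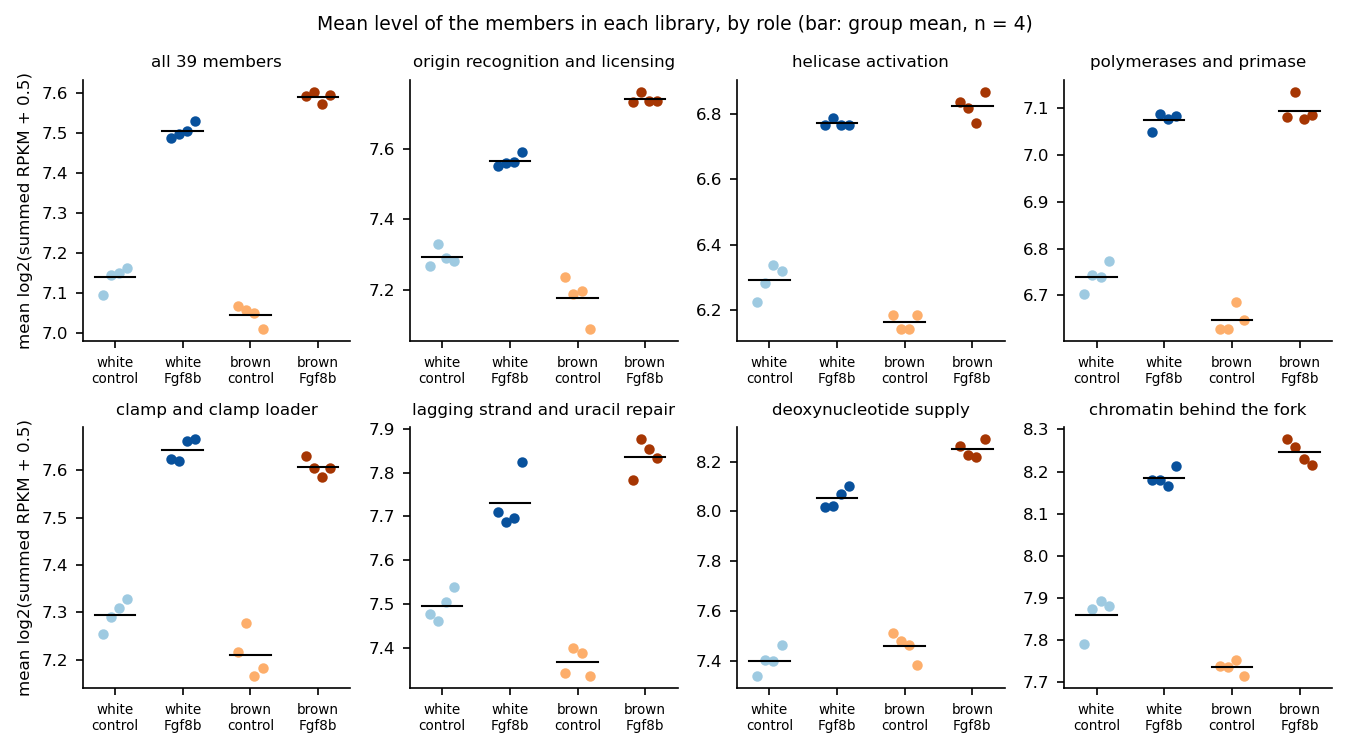
Mean of log2(summed RPKM + 0.5) over all 39 members and over the members of each of the 7 roles, 1 point per library in number order, with a bar at the mean of 4 libraries; the axes differ between panels and do not start at 0. In every panel the Fgf8b libraries lie above the controls of their depot, and brown control 15 is the lowest point for licensing, at 7.087.

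The response was larger in brown than in white preadipocytes for 32 of the 39 members. The difference of the responses, tested as an interaction, was called higher for 20 members and lower for 0, where 17.1% of all tested genes were called higher and 17.8% lower. Its median was 0.18 over the members and -0.009 over all tested genes. No member was called lower by limma in any of the 24 alternatives either, and at an unadjusted p under 0.05 limma gave 0 lower. Without brown control 15 the count of members called higher was 21.

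The called members were spread unevenly over the roles, with 9 of 10 licensing genes, 2 of 6 in helicase activation, 2 of 6 polymerase genes, 2 of 6 clamp genes, 2 of 3 lagging-strand and uracil genes, 1 of 4 in nucleotide supply and 2 of 4 in chromatin. The largest differences were those of Mcm10 at 0.5 ± 0.0902 (SE) and Cdt1 at 0.48 ± 0.0856 (SE) (log2, limma adjusted p = 0.000278 and 0.000255). Ung followed at 0.44 ± 0.0935 (SE), Rrm2 at 0.4 ± 0.0604 (SE), Mcm3 at 0.39 ± 0.0449 (SE), Cdc6 at 0.38 ± 0.0919 (SE), Mcm5 at 0.36 ± 0.0646 (SE) and Chaf1b at 0.36 ± 0.0651 (SE). Of the licensing genes, Orc6 was the exception at 0.15 ± 0.0763 (SE) (limma adjusted p = 0.131).

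Several calls of a difference were close to the threshold. Cdc45, at 0.21 ± 0.0796 (SE) (limma adjusted p = 0.0496), lost its call in 17 of 24 alternatives. In 13 of them 1 library was left out, which was any library except white control 1, brown control 9 and brown Fgf8b 12, and limma adjusted p reached 0.107. Orc1, at 0.34 ± 0.116 (SE) (limma adjusted p = 0.0279), lost its call without white control 3 or 5, white Fgf8b 2, brown control 13 or brown Fgf8b 12 or 16, with limma adjusted p up to 0.0645. Mcm6 lost its call with upper-quartile scaling (0.12, limma adjusted p = 0.0577). For Tk1 the difference was -0.05 ± 0.076 (SE) (limma adjusted p = 0.665), and for Pola1, Rfc3, Rfc2 and Pold1 it was within 0.04 of 0. These values were not called and do not show that the responses were equal.

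**Figure D3:**
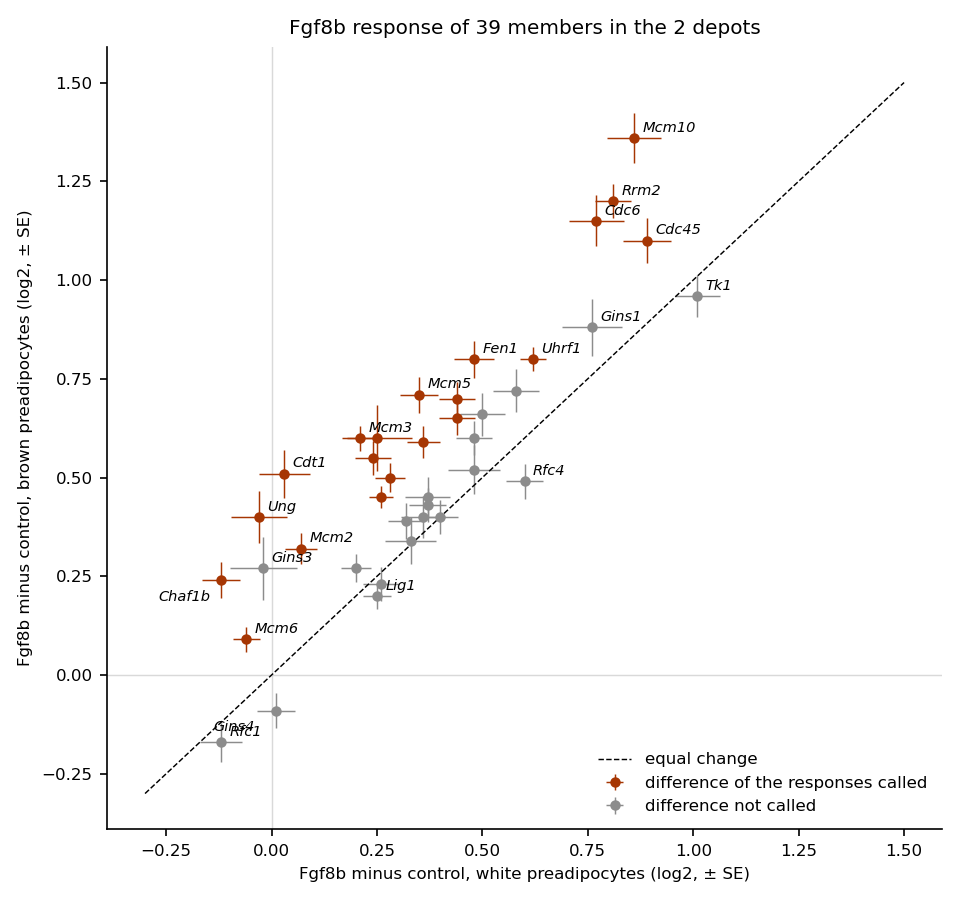
Log2 change of each member with Fgf8b in white (x axis) and brown (y axis) preadipocytes, with standard errors and a dashed line of equal change; dark points had a called difference of the responses. Most points lie above the line, and Mcm10 reaches 0.86 and 1.36.

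The median depot difference of the replication genes had opposite signs with and without Fgf8b. These comparisons share their libraries with the responses above, so the values are set side by side and not counted as separate evidence. Between control libraries, brown against white, 1 member was called higher and 15 lower, where 18.1% of all tested genes were called higher and 15.9% lower. The 15 lower calls ranged from 11 to 16 with a library left out. Under Fgf8b, 14 members were called higher and 4 lower, against 26.9% and 24.7% of all genes. The 14 higher calls ranged from 12 to 17 with a library left out. The 4 lower calls became 2 without white Fgf8b 4 and 7 without brown control 15, and the single higher call in controls became 2 without white control 7, white Fgf8b 8 or brown control 9 or 15. The median log2 difference of the members was -0.086 in control and 0.097 in Fgf8b libraries.

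In control libraries, Ung at -0.38 ± 0.0661 (SE) and Cdt1 at -0.37 ± 0.0606 (SE) (log2, brown minus white, limma adjusted p = 0.000202 and 9.87e-05) lay furthest below white. Pola2 at -0.28, Chaf1b at -0.26, Gins1 at -0.22, and Mcm6 and Mcm7 at -0.21 each followed. Under Fgf8b these 7 were not called, at 0.06, 0.11, 0.04, 0.1, -0.1, -0.07 and 0.02 in the same order. In controls, Mcm3, Mcm10, Gins2, Gins1 and Rfc2 lost their lower calls in 14, 9, 8, 5 and 2 of 25 alternatives. Rrm1 was the member called higher in brown controls, at 0.19 ± 0.0353 (SE), and it was so under Fgf8b at 0.26 ± 0.0353 (SE).

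With Fgf8b, brown exceeded white most for Rrm2 at 0.47 ± 0.0427 (SE) and Fen1 at 0.43 ± 0.0469 (SE) (limma adjusted p = 4.78e-08 and 4.3e-07), then for Cdc6, Mcm10, Mcm3 and Orc1 at 0.34, 0.32, 0.31 and 0.31. Among the members called higher, Tyms and Rfc5 lost their calls in 4 and 3 of 25 alternatives (limma adjusted p up to 0.0792 and 0.0893). The members called lower in brown were Rfc4, Lig1, Rfc2 and Pold1, at -0.19, -0.17, -0.16 and -0.16. Of these, Pold1 lost its call without white Fgf8b 4 (limma adjusted p = 0.0548). Rfc2 lost its call without any 1 of the 4 white Fgf8b libraries or of brown Fgf8b 10, 14 and 16, with limma adjusted p up to 0.0903.

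**Figure D4:**
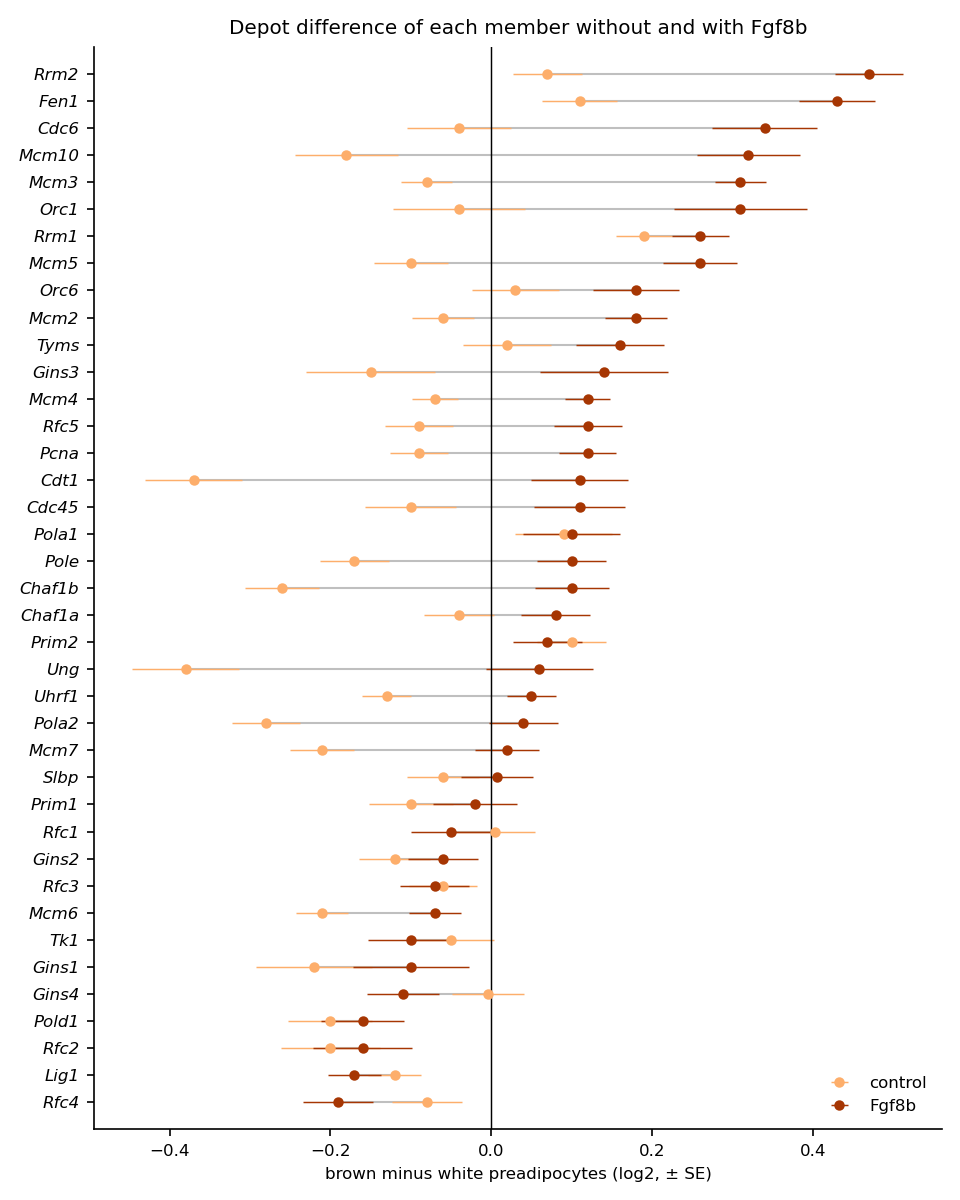
Brown minus white difference (log2, with standard errors) of each member in control (light) and Fgf8b libraries (dark), ordered by the latter. Rrm2 goes from 0.07 to 0.47, and Ung from -0.38 to 0.06.

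Other genes of the pathway, from 6 lists with 112 genes, were read the same way. In white preadipocytes 91 were called higher and 6 lower, with a median of 0.419, and in brown 99 and 6, with a median of 0.538. Over all tested genes, 36.3% were called higher and 29.5% lower in white, and 36.7% and 34.7% in brown. The difference of the responses was called higher for 37 and lower for 9, against 17.1% and 17.8% of all tested genes. Among other licensing and firing genes, 13 of 15 rose in each depot. Gmnn, which blocks Cdt1, rose by 1.02 in white and 0.75 in brown, a smaller change in brown (difference -0.26 ± 0.0894 (SE), limma adjusted p = 0.0294). This is the opposite order to that of Cdt1 itself.

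Among other fork genes, 20 of 24 rose and 1 fell in white, and 23 rose in brown. Dna2, which also processes Okazaki fragments, rose by 0.31 and 0.94, and Top2a, which untangles replicated DNA, by 0.86 and 0.8. Among other nucleotide supply genes 17 of 20 rose and 2 fell in each depot. Dctd, which feeds Tyms with its substrate, rose by 0.58 and 1.18. Of the replication-coupled chromatin genes, 9 of 12 rose in white, while 11 rose and 1 fell in brown, with Asf1b, a histone chaperone that hands histones to CAF-1, at 0.85 and 1.02. Of the checkpoint and repair genes, 16 and 18 of 20 rose, among them the nuclease gene Exo1 at 0.8 and 1.23.

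Of the E2F and G1/S regulators, 16 of 21 rose and 3 fell in white, and 17 rose and 3 fell in brown. E2f8, a repressor of the E2F family, rose by 0.97 ± 0.0537 (SE) and 1.52 ± 0.0537 (SE) (difference limma adjusted p = 1.86e-05). Skp2, of the ligase that marks CDK inhibitors for destruction, rose by 0.69 and 1.02, and the phosphatase gene Cdc25a by 0.53 and 0.97. Upstream of these, D cyclins and CDK inhibitors were mixed, with 7 of 12 higher and 5 lower in white and 5 and 5 in brown. The shares of all tested genes were 36.3% higher and 29.5% lower in white, and 36.7% and 34.7% in brown. Ccnd1, the cyclin that growth factors induce, went from 24.6 to 114 RPKM in white and from 23.2 to 143 in brown. The inhibitor genes Cdkn1a and Cdkn1c fell, with changes of -1.16 and -1.87 in white and -1.16 and -1.45 in brown.

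Mitosis genes, which act after replication, were read for comparison. All 30 of 30 rose in each depot, with median changes of 0.808 in white and 0.786 in brown. Of all tested genes, 36.3% were called higher in white and 36.7% in brown. The difference of the responses was called by limma higher for 0 (0 at an unadjusted p under 0.05) and lower for 7. For this difference 17.1% of all tested genes were called higher and 17.8% lower. The 7 mitosis genes called lower were Ccnb2, Cenpe, Cenpf, Tpx2, Prc1, Anln and Nusap1, named after their values were seen. Ccnb2, a mitotic cyclin, rose by 1.11 in white and 0.84 in brown. The median difference was -0.045 for the mitosis list and 0.18 for the replication genes, and the contrast between the lists was not tested. The promoter windows differed too: the word TTTGAA, known as the CHR element, stood in 78.6% of mitosis windows, 10.8% of member windows, 11.8% of windows of tested genes and 17.9% of all windows on either strand. The E2F words stood in 3.57% of mitosis windows. The word CCAAT stood on either strand in 59.5% of member, 82.1% of mitosis and 37.4% of all windows.

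**Figure D5:**
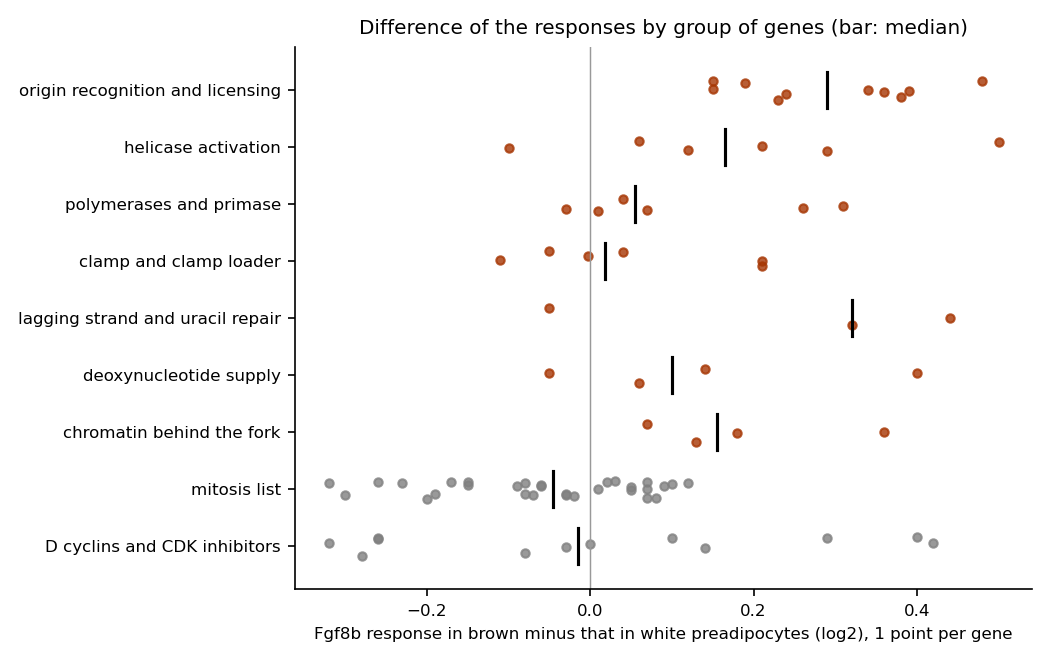
Brown minus white difference in Fgf8b response (log2), 1 point per gene, for the members by role and for the lists of mitosis genes and of D cyclins and CDK inhibitors, with a bar at the median; vertical scatter within a row has no meaning. The licensing genes all lie right of 0, from 0.15 to 0.48, while the median of the mitosis list is -0.045.

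Some markers of other cells changed with Fgf8b as well, and their part in these results was not tested. The counts below stand beside 36.3% of all tested genes called higher and 29.5% lower in white. In brown these shares were 36.7% and 34.7%. Of 10 Schwann cell markers, 7 were tested, of which 4 fell in white and 7 in brown, and their summed levels went from 13 to 15.1 RPKM in white control to 2.78 to 3.71 in white Fgf8b, and from 18.3 to 20.6 to 5.09 to 6.62 in brown. Of 11 endothelial markers, 7 were tested and 5 fell and 1 rose in each depot, with sums of 30.8 to 33.6 and 14.5 to 16.9 RPKM in white and 44.9 to 55.5 and 27.2 to 30.3 in brown. Leukocyte markers summed to 3.06 to 3.75 and 1.95 to 2.45 RPKM in white, and 3.69 to 6.05 and 1.88 to 2.37 in brown, with 3 of 4 tested ones lower and 1 higher in each depot and Cd3e listed at 0 throughout. Skeletal muscle markers, with Myod1 listed at 0 throughout, summed to 6.69 to 9.41 and 4.98 to 5.79 RPKM in white and 10.3 to 12.1 and 3.96 to 4.36 in brown, with 2 of 5 tested ones higher and 1 lower in white and 1 and 3 in brown. Epithelial and mesothelial markers, of which Krt14 and Lrrn4 were listed at 0, rose from 0.273 to 0.458 to 7.87 to 9.01 RPKM in white and from 0.223 to 0.407 to 4.19 to 5.08 in brown, nearly all of it Bnc1. Of the tested ones, 3 of 5 were higher in white, and 4 higher and 1 lower in brown. Of the preadipocyte and fibroblast markers, whose sums are given above, 10 of 14 fell and 4 rose in white and 11 and 3 in brown, with Col1a1 at -2.11 and -2.52 and Vim at 0.58 and 0.62.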

How the data were processed

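RNA of 16 libraries was sequenced after library preparation (TruSeq RNA Sample Prep kit v2), per the labels' protocols. CASAVA and bcl2fastq are named in the submitters' processing notes. Aligner, genome build and use of strand: not given in the sources used here. The authors deposited RPKM per transcript, in another number format than usual (decimal commas), with 168326 entries and 16 columns of values. Of these, 23172 entries without a symbol and 808 entries of 299 repeated accessions were left out (0 of the 314 entries of members), and 144549 entries were summed to 29060 genes. Low values (at most 50 reads) behaved as whole reads, within a tolerance of 0.1, in 95.8 to 96.1% of cases per library, which gave the depths. Reads per member are approximate, since lengths came from GENCODE M21, and no count test was run.

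A filter of 0.5 RPKM or more in 4 or more libraries left 15222 genes, whose log2(RPKM + 0.5) was fitted in limma 3.58.1 (R 4.3.3) across the 16 libraries together, so that they share 1 estimate of the spread, with robust moderation along a mean-variance trend. Comparisons were the Fgf8b response in white and in brown cells, the depot difference without and with Fgf8b, and the interaction of depot and Fgf8b. Calls needed a Benjamini-Hochberg adjusted p under 0.05. Alternatives were other pseudocounts, filters and scalings, representative transcripts alone, fits of only the groups compared, no trend or robust moderation, and each library left out in turn. The fit was tested on simulated data. Levels are those of the RefSeq transcript of a gene with the highest mean. Shared sequence is the share of 31-base words of a gene found in other genes of GENCODE M21. Figures and the remaining steps used Python 3.11.15 with pandas 2.3.3 and matplotlib 3.10.9.

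All 39 members are named, and of each further list the 3 genes with the largest change past the threshold and a mean of at least 1 RPKM (of marker lists, the 3 with the highest mean), of which the text gives a part. The members and the lists were chosen with earlier results of these data known.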

Additional observations from a re-analysis of the deposited data

Results flagged for a closer look

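In 14 of the 156 gene and group combinations of the members, 1 of the 4 libraries lay apart from the other 3 in RPKM of the representative transcript, by a gap test that marks about 1 in 20 groups by chance. White control 7 was high for Orc6 (32.6 RPKM), Prim2 (21.4) and Ung (9.64), white control 5 was high for Chaf1b (29.6), and white control 1 was low for Chaf1a (20.6). White Fgf8b 2 was low for Mcm3 (60.9) and Gins3 (6.21), and white Fgf8b 4 for Orc1 (3.6). Among brown controls, library 11 was low for Orc6 (27.8), library 13 for Rfc5 (14.3) and library 15 for Mcm4 (52.1) and Pole (8.01). Among brown Fgf8b libraries, library 12 was high for Pola2 (28.4) and library 16 was low for Mcm7 (45.9). Brown control 15 was the lowest of its group for 24 of the 39 members and white control 1 for 22.

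For 20 of the 39 members the Fgf8b responses differed between the depots by the interaction test, all larger in brown. The differences (log2, brown minus white) were 0.50 for Mcm10, 0.48 for Cdt1, 0.44 for Ung, 0.40 for Rrm2, 0.39 for Mcm3, 0.38 for Cdc6, 0.36 for Mcm5 and for Chaf1b, and 0.34 for Orc1. They were 0.32 for Fen1, 0.31 for Pola2, 0.26 for Pole, 0.24 for Mcm2, 0.23 for Mcm7, and 0.21 for Cdc45, Pcna and Rfc5. The smallest were 0.19 for Mcm4, 0.18 for Uhrf1 and 0.15 for Mcm6.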

How the results depend on the processing

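The counts of members called higher with Fgf8b were 30 to 32 in white and 36 to 37 in brown preadipocytes when each library was left out in turn, and the count with a larger response in brown was 18 to 22, with 0 smaller. Small counts moved. Members called lower in white (2) were 1 without the filter on low values, 1 without trend and robust moderation, and 0 to 2 with a library left out: 0 without white Fgf8b 2 or 4 or white control 5 or 7, and 1 without white control 3 or white Fgf8b 8. Members called lower in brown (1) were 2 with median-of-ratios and with upper-quartile scaling, and 1 to 2 with a library left out, with 2 without brown Fgf8b 10 or brown control 15. Members higher in brown than white controls (1) were 2 with representative transcripts alone, and 1 to 2 with a library left out, with 2 without white control 7, white Fgf8b 8 or brown control 9 or 15. Members lower in brown than white under Fgf8b (4) were 7 with upper-quartile scaling, and 2 to 7 with a library left out, with 2 without white Fgf8b 4 and 7 without brown control 15. The member median was 0.308 in white and 0.476 in brown with median-of-ratios scaling, and 0.297 and 0.419 with upper-quartile scaling. Leaving out a library gave 0.48 to 0.548 in brown, and for brown against white under Fgf8b the median was 0.066 with upper-quartile scaling and 0.068 to 0.1 with a library left out.

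Values near 0 that were not called also changed sign, and the cause was not tested. In white preadipocytes the change of Cdt1 was -0.02 with median-of-ratios and -0.03 with upper-quartile scaling. That of Gins4 was -0.04 and -0.05 with these and -0.01 with representative transcripts alone. With a library left out, the white change was -0.04 to 0.04 for Gins3, -0.02 to 0.04 for Gins4 and -0.07 to 0.01 for Ung. Between controls of the depots, Rfc1 was -0.0032 with median-of-ratios scaling and -0.04 with representative transcripts alone, and Cdc6 was 0.0025 with the latter. There, leaving out a library gave -0.11 to 0.01 for Cdc6, -0.04 to 0.02 for Gins4, -0.1 to 0.02 for Orc1, -0.05 to 0.03 for Rfc1, -0.08 to 0.02 for Tk1 and -0.04 to 0.05 for Tyms. Between depots under Fgf8b, Mcm7 was -0.01 and Slbp -0.02 with upper-quartile scaling, and -0.0013 to 0.03 and -0.02 to 0.03 with a library left out. For the difference of responses, Rfc3 was 0.01 with median-of-ratios and Pola1 -0.02 with upper-quartile scaling. Leaving out a library there gave -0.03 to 0.06 for Pola1, -0.01 to 0.08 for Pold1, -0.08 to 0.0079 for Rfc1, -0.04 to 0.09 for Rfc2 and -0.03 to 0.03 for Rfc3. No paired analysis was possible because no replicate number is shared between groups. Depth limits the lowest members most, Gins1 and Orc1, with about 137 and 139 reads in their shallowest library.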

Other observations

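In the nucleotide list, 4 genes that supply carbon for thymidylate are given here, of which Mthfd1 and Mthfd2 were picked after their values were seen. Shmt2, the mitochondrial serine hydroxymethyltransferase, had 63.4 to 68.3 RPKM in white control, 134 to 146 in white Fgf8b, 55.4 to 63.8 in brown control and 83.1 to 89.8 in brown Fgf8b libraries. Shmt1, its cytosolic counterpart, had 9.7 to 10.6, 12.7 to 13.8, 8.05 to 9.34 and 20.6 to 22.2 RPKM in the same order. The brown minus white difference in response, on the log2 scale, was -0.51 ± 0.0614 (SE, limma adjusted p = 3.76e-06) for Shmt2 and 0.84 ± 0.0652 (SE, limma adjusted p = 2.01e-08) for Shmt1. The mitochondrial and cytosolic partners that follow them had the same signs, with -0.63 for Mthfd2 (limma adjusted p = 5.36e-08) and 0.48 for Mthfd1 (limma adjusted p = 8e-06). In all 4 genes both depots rose with Fgf8b, and the groups of Shmt1 and of Shmt2 did not overlap by treatment.

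A few genes that restrain S phase or act outside it fell in both depots, and they were picked after their values were seen. Of all tested genes, 29.5% in white and 34.7% in brown were called lower. The Cdt1 blocker Gmnn and the E2F repressor E2f8 rose in both depots, as given above. Samhd1, which breaks down deoxynucleotides, had a mean of 68.6 RPKM in white control and 40.8 in white Fgf8b, and 55.9 and 45 in brown, with log2 changes of -0.64 and -0.29. Tk2, the mitochondrial thymidine kinase, had a change of -0.34 in each depot, opposite in sign to Tk1. Of the retinoblastoma family, Rb1 had changes of -0.35 and -0.75, and Rbl2 of -0.17 and -0.42. Rpa1, the large subunit of the single-strand binding protein, was lower in white (-0.09, limma adjusted p = 0.0129) and higher in brown (0.16, limma adjusted p = 0.000124), while the smaller subunits Rpa2 and Rpa3 rose in both.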
